A study of Mus musculus with 2 samples.

Results

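Prdm1, Prdm6, Prdm8, Prdm13, Prdm14 and Prdm16 are 6 genes of the Prdm family of transcriptional regulators, described here by the H3K27me3 that they carried in adult mouse sciatic nerve. The genes were listed by name, and the peaks of each were those that overlapped its span plus 10 kb on either side by at least 1 bp. This gave 29 of the 6018 peaks in the deposited list and 6 of 21887 protein-coding genes. Because the 6 genes were listed with earlier results of these data known, that all of them had a peak is a description and not a test.

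H3K27me3 was measured by chromatin immunoprecipitation and sequencing in sciatic nerve from C57/BL6 males at 8 weeks of age, with 1 ChIP library and 1 input library. The labels name no treatment and no genetic change. The nerve was taken whole, so Schwann cells, fibroblasts, vessel cells and immune cells contributed together. Fewer cells carrying the mark therefore cannot be told apart from less mark per cell. The labels do not say how many animals went into each library. There were no replicates, so every interval below covers counting error only, no p-values were computed, and no value could be set against variation between animals.

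Prdm proteins carry a PR domain, related to the SET domain of histone methyltransferases, and in most members a row of zinc fingers that bind DNA. Many act as repressors that fix a cell's fate by recruiting histone-modifying enzymes. H3K27me3 is deposited by Polycomb repressive complex 2 and is typical of developmental regulator genes that are silent in a tissue. Prdm1 (also Blimp1) drives B cells to become plasma cells and sets aside primordial germ cells, the latter together with Prdm14. Prdm13 and Prdm8 act in the developing nervous system, Prdm6 in vascular smooth muscle and Prdm16 in brown fat and stem cells.

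The promoter sequences show where peaks met the annotated start sites. RefSeq promoter windows (GRCm38.p6, which is build mm10), which run from 250 bases before to 50 bases after a start site, were found for 4 of the 6 genes, Prdm1, Prdm8, Prdm13 and Prdm16. Prdm12 is shown as a family gene with a peak over its promoter, and Prdm4 as one with no peak in its window. Each is written 5′ to 3′ on the gene's strand with every CG dinucleotide in capitals. The Prdm8 window lies at chr5:98180619-98180918 (plus strand), Prdm1 at chr10:44458699-44458998 (minus strand), Prdm13 at chr4:21685914-21686213 (minus strand), Prdm16 at chr4:154636824-154637123 (minus strand), Prdm12 at chr2:31639787-31640086 (plus strand) and Prdm4 at chr10:85916680-85916979 (minus strand).
Prdm8: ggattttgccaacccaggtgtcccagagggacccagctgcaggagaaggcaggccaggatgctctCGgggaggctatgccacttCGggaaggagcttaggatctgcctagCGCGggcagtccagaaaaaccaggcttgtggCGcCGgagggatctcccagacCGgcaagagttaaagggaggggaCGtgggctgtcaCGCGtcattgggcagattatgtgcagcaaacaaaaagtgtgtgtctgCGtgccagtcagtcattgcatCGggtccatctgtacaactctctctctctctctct
Prdm1: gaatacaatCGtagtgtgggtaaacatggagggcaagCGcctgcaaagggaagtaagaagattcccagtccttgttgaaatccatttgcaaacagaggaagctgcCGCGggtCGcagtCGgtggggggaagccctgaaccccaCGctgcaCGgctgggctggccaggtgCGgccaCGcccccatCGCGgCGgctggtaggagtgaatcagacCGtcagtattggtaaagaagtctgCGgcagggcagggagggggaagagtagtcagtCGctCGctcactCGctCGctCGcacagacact
Prdm13: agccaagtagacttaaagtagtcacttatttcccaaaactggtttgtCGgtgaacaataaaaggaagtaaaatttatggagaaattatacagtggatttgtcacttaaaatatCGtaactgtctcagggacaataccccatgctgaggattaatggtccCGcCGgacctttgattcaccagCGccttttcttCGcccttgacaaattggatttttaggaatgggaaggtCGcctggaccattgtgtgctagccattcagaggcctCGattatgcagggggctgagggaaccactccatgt
Prdm16: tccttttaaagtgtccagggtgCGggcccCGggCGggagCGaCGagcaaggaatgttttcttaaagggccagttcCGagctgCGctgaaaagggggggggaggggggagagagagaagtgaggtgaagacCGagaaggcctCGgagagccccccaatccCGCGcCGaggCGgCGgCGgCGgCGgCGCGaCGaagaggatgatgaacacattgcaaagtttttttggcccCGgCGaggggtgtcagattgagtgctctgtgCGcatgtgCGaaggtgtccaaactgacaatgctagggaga
Prdm12: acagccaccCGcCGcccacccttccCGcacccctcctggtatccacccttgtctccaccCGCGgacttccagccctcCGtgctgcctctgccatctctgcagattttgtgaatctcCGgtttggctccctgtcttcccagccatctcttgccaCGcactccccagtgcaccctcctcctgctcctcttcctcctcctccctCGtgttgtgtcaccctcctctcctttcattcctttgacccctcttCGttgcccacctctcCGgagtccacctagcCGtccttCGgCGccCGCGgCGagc
Prdm4: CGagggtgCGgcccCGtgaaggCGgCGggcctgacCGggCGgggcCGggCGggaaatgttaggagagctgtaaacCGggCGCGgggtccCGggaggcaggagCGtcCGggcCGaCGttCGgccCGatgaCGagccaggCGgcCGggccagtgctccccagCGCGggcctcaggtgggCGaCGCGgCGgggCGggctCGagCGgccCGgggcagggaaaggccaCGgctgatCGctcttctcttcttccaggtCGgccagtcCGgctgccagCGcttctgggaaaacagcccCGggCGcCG

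Peaks covered all 300 bases of the Prdm8 and Prdm1 windows, and 42 bases of the Prdm13 window. The Prdm8 and Prdm1 windows lie inside the gene span, away from its upstream end. The edge of a Prdm13 peak lay 8 bp from the annotated start site. The Prdm16 window was not touched, and the nearest peak began 43 bp from it. That peak crossed the upstream end of the annotated gene, which lies outside the window. Of all 21263 RefSeq promoter windows of protein-coding genes, 4.42% were overlapped by a peak, against 3 of these 4. The CG count was 12 in Prdm8, 20 in Prdm1, 8 in Prdm13 and 24 in Prdm16. The median was 13 over all windows and 19 over the 940 windows that a peak overlapped. The member without overlap therefore held the most CG dinucleotides of the 4. Relative to what the C and G content of the window would give, CG was present at 0.94 of the number in Prdm16, 0.77 in Prdm1, 0.55 in Prdm13 and 0.49 in Prdm8. The sequence GAAAG, the core of the site that the Prdm1 protein binds, was searched on both strands. It was in 0 of the 4 windows and in 55.0% of all windows, so these letters were absent from a stretch of 300 bases in each gene, which says nothing on binding elsewhere.

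Reads were spread unevenly over the 6 genes. The authors' score per peak, whose meaning is not stated, rose in whole steps of 2.5735. It was divided by that step and read as a number of reads, so that the lowest score of 25.7 stands for 10 reads. All read counts and their intervals rest on that reading. Prdm6 had 322 reads in 7 peaks (exact 95% Poisson interval 288 to 359). Prdm13 had 271 reads in 4 peaks (240 to 305). These were the highest counts of the 6, and their intervals overlap. The place of Prdm13 rested on its flanks: within the gene span alone it had 144 reads, against 236 at Prdm6, 156 at Prdm8 and 133 at Prdm1. Prdm8 had 166 reads in 5 peaks (142 to 193), Prdm1 had 143 in 6 (121 to 169) and Prdm14 had 135 in 2 (113 to 160). The intervals of these 3 genes overlap one another and lie below those of Prdm6 and Prdm13. Prdm16 came last, with 60 reads in 5 peaks (45.8 to 77.2), an interval below all of the others. The median over the 6 was 155 reads.

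**Figure D1:**
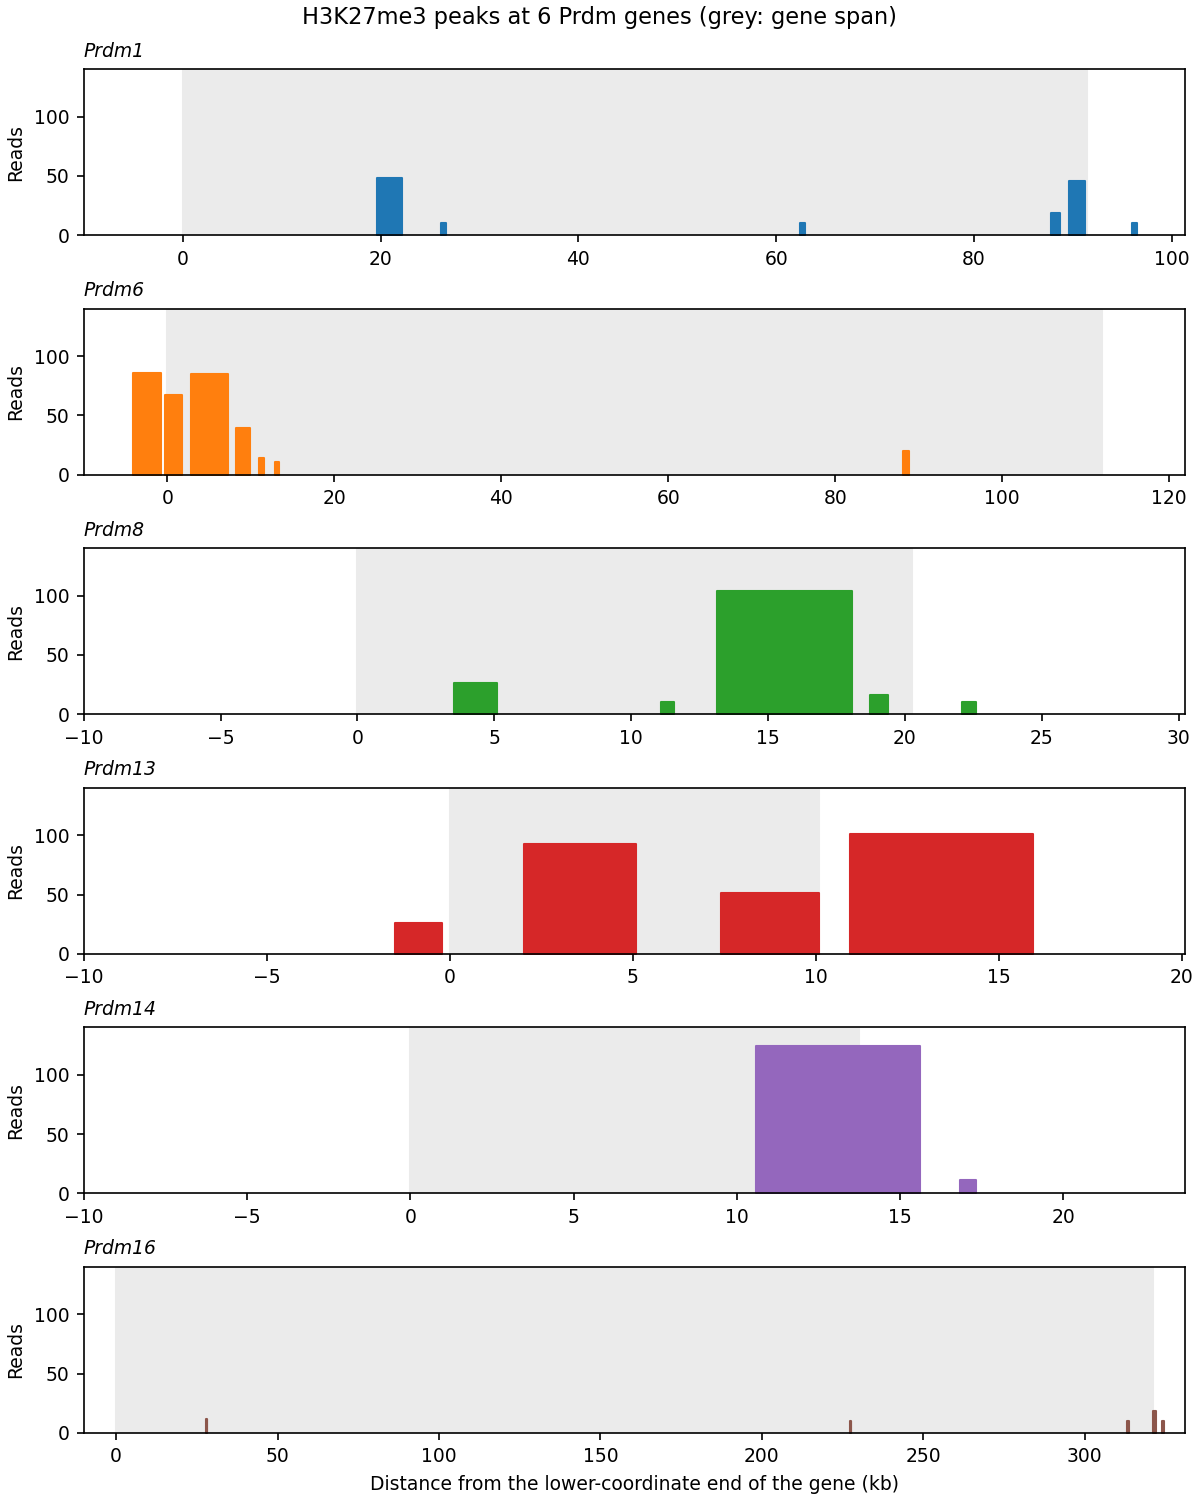
Each panel is 1 gene with its 10 kb flanks: the x axis is the distance in kb from the end of the gene with the lower coordinate, the y axis the reads of each peak, the coloured blocks are peaks drawn at their width with a thin centre line, and grey is the gene span. The x scales differ between panels. Prdm13 is overlaid and flanked by 4 peaks of 26 to 101 reads, while the 5 peaks of Prdm16 hold 10 to 18 reads each along a gene of 321 kb.

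All 6 genes had a peak, where 13.7% of protein-coding genes did (2988 of 21887) in windows built the same way. A gene with at least as many reads as Prdm6 was rare, at 0.57% of protein-coding genes (124). The share was 0.80% for Prdm13, 1.38% for Prdm8, 1.57% for Prdm1, 1.69% for Prdm14 and 3.59% for Prdm16. Among the 2988 genes with a peak the median was 25 reads and the third quartile 63. Prdm16 lay just under that quartile and the other 5 above it. Longer genes have longer windows, so each gene was also set beside genes of 0.5 to 2 times its length. Of 1188 genes near the length of Prdm16, 28.4% had a peak, against 13.3% of 6839 near the length of Prdm13. Prdm16 had more reads than 93.8% of the former and Prdm13 more than 99.0% of the latter.

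**Figure D2:**
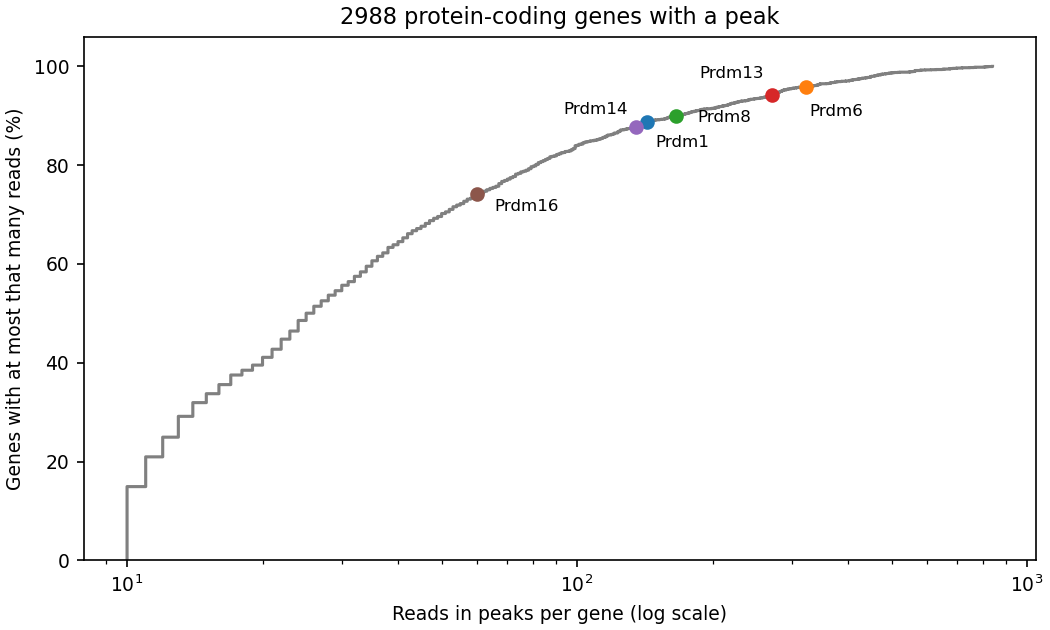
The curve gives, for the 2988 protein-coding genes with a peak, the percentage (y axis) with at most the reads shown on the log-scaled x axis, and coloured points mark the 6 Prdm genes. Prdm16, at 60 reads, sits near the third quartile of 63, and the other 5, from 135 reads up, lie in the upper tail.

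Coverage ordered the genes differently from reads, because gene length ran from 10.1 kb (Prdm13) to 321 kb (Prdm16). Peaks covered 39.9% of the Prdm13 window of 30.1 kb, 20.2% at Prdm8 (40.3 kb), 16.4% at Prdm14 (33.7 kb), 10.2% at Prdm6 (132 kb), 5.91% at Prdm1 (111 kb) and 0.86% at Prdm16 (341 kb). Per kb of window, reads were 9.0 at Prdm13 and 4.12 at Prdm8. They were 4.00 at Prdm14, 2.44 at Prdm6, 1.28 at Prdm1 and 0.18 at Prdm16. By this measure Prdm16 fell among ordinary genes with a peak: 20.2% of them had fewer reads per kb, against 95.2% for Prdm13 and 73.2% for Prdm1.

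The neural genes Prdm13 and Prdm8 had wide peaks over much of the gene. Prdm13 works beside Ptf1a in the dorsal spinal cord and retina, where it helps to choose between inhibitory and excitatory neurons. The gene (chr4:21675865-21685963, minus strand) lay in 1 domain of 17.4 kb once peaks within 5 kb were merged. From low to high coordinates its peaks held 26, 93, 51 and 101 reads, at widths of 1302, 3056, 2684 and 4978 bp. The peak of 101 reads lay upstream of the gene, starting 848 bp beyond its annotated start. Within the gene itself, 56.8% of bases were covered. The peak of 93 reads was dense, at 30.4 reads per kb, above 97.5% of all peaks in the list.

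Prdm8 encodes a repressor that works with Bhlhe22 in neurons of the cortex, retina and spinal cord. The gene lies at chr5:98167203-98187454 on the plus strand. Of its reads, 104 were in 1 peak of 4936 bp (chr5:98180348-98185283) that covered the start site in the promoter table and overlapped the long non-coding RNA gene A730035I17Rik inside Prdm8. The other peaks held 26, 10, 16 and 10 reads. The wide peak began 13.1 kb inside the lower end, which is the upstream end of the annotated gene. No peak crossed that end. The peak of 26 reads lay 3.53 kb inside it and had few reads for its width of 1584 bp. Its density was 16.4 per kb, a value that 1.61% of all peaks fell below. Peaks covered 37.8% of the gene.

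The germ cell regulators Prdm14 and Prdm1 differed in layout. Prdm14, which guards pluripotency and the germ line, had nearly all of its mark in 1 place: a peak of 5030 bp with 124 reads (chr1:13124003-13129032) that crossed the upper end of the gene (chr1:13113428-13127163), or 91.9% of its reads. That was the widest peak at any of the 6 genes, and 96.6% of all peaks were narrower. A peak of 500 bp with 11 reads followed 3.09 kb beyond the gene. The rest of Prdm14 and its lower flank had no peak. The nearest protein-coding gene, Ncoa2, a nuclear receptor coactivator, began 11.9 kb from Prdm14. Within its own 10 kb flanks Ncoa2 had only that peak of 11 reads, which Prdm14 shared.

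Prdm1 (chr10:44437174-44528558, minus strand) held most of its reads in 2 places, over the start site in the promoter table and at the upper end of its span. A peak of 2537 bp with 48 reads (chr10:44456773-44459309) covered that start site and ended 69.2 kb short of the upper end. At that upper end stood peaks of 19 and 46 reads, the latter ending 163 bp inside the gene and dense at 29.2 reads per kb, above 96.3% of all peaks. The remaining 3 peaks were 500 bp wide with 10 reads each, the lowest count and the shortest width in the list. Merged within 5 kb, the domain at the upper end held 75 reads and the one at the start site 58. RefSeq transcripts that begin at the upper end were not examined.

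The mesenchymal genes Prdm6 and Prdm16 lay at opposite ends of the range. Prdm6, which represses differentiation genes in smooth muscle, carried the most reads of the 6, and 93.8% of them lay at its lower end (gene on chromosome 18, 53463955 to 53575904). There 6 peaks of 86, 67, 85, 39, 14 and 11 reads formed a domain of 17.6 kb, which ran from -4.15 to 13.4 kb relative to that end, negative values lying outside the gene. The peak of 67 reads crossed the gene's end and had 33.7 reads per kb, more than 99.0% of all peaks. Beyond that domain the gene had 1 more peak, of 20 reads, 88.1 kb from the same end. The flank held 86 of the 322 reads, in a peak that ended 776 bp outside the gene.

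Prdm16, which switches muscle and white fat precursors toward brown fat, had no peak above 18 reads. Its 5 peaks held 12, 10, 10, 18 and 10 reads, and 4 of them had the shortest width of 500 bp. The gene spans 321 kb (chr4:154316122-154637360, minus strand), of which 0.53% was covered. The peak of 18 reads (exact 95% interval 10.7 to 28.4) crossed the upstream end of the gene. With the last peak of 10 reads it also overlapped the divergent long non-coding RNA gene Prdm16os. With only peaks of at least 20 reads counted, Prdm16 had none and 5 of the 6 genes had a peak, against 6.77% of protein-coding genes.

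**Figure D3:**
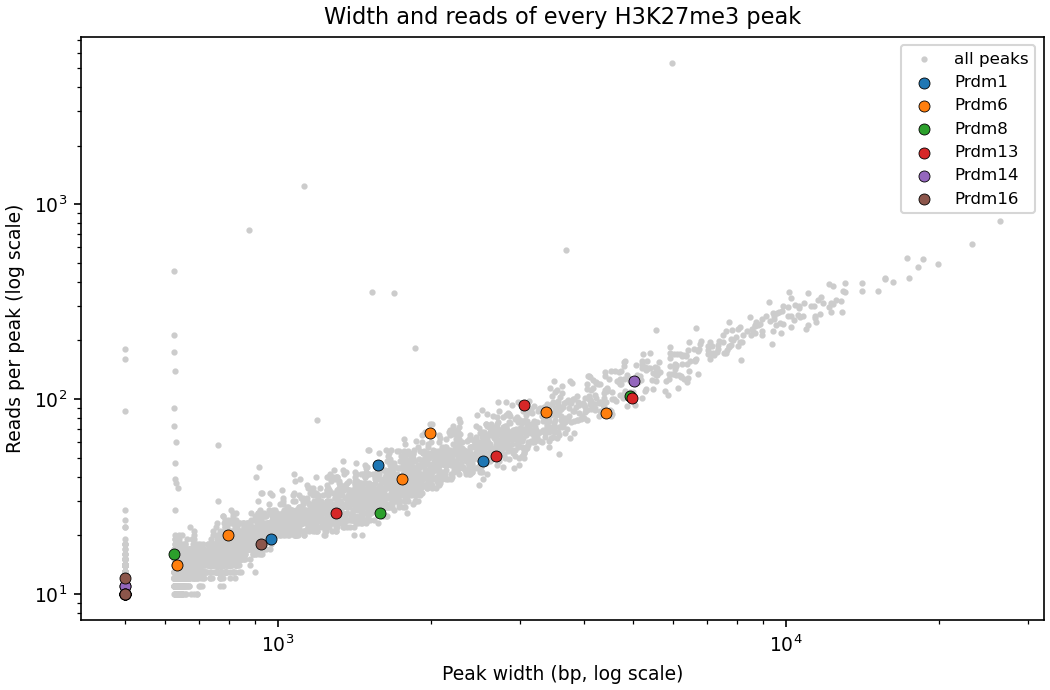
Each point is 1 peak, with its width in bp on the x axis and its reads on the y axis, both on log scales; grey points are all 6018 peaks and coloured points the 29 at the 6 Prdm genes. The coloured points follow the main band of the list, and none reaches above 124 reads or 5030 bp.

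Singly, the 29 peaks resembled the list in density and exceeded it in width at the median. Their median width was 927 bp against 643 bp over all peaks, and their median was 19 reads against 14. The median density was 20 reads per kb against 21.0. Peaks of 10 or 11 reads made up 34.5% of them (10 of 29) and 36.7% of the list, and peaks of at least 20 reads 48.3% and 35.3%. Of the 29, 19 lay inside a gene, 3 crossed an annotated end and 7 lay in the flanks. Each of the 6 genes had at least 1 peak within 2 kb of an annotated end, which at Prdm8 was the downstream end only. Places were not counted over all protein-coding genes, so these counts cannot be called particular to the 6.

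Beyond the windows, the distance to the next peak varied among the 6 genes. The farthest peak within any flank was 4.55 kb from its gene (Prdm1), and the nearest peak outside any window was 66.0 kb away (Prdm8), so flanks of 5 or 20 kb gave the same reads for all 6 genes. The next peak was 1178 kb from Prdm14 on the nearer side, 793.5 kb from Prdm13, 616 kb from Prdm6 and 431 kb from Prdm1. It was 103 kb from Prdm16. The median of this distance over the 2988 genes with a peak was 82.2 kb, and the share of those genes with a nearer one was 93.4% for Prdm14, 90.1% for Prdm13, 87.2% for Prdm6 and 82.8% for Prdm1. Prdm16 (54.7%) and Prdm8 (45.0%) lay near the middle. The peak next to Prdm8 held 54 reads and lay at Fgf5, a growth factor gene and the nearest protein-coding neighbour. On the other side of Prdm8 no peak was listed for 5122 kb. No other protein-coding gene reached into the window of any of the 6. The nearest neighbours Atg5 (Prdm1), Ppic (Prdm6), Ccnc (Prdm13) and Arhgef16 (Prdm16) had no peak in their own windows.

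The rest of the Prdm family divided into genes with broad peaks and genes with none. Of 9 further members examined, 2 had a peak (22.2%, exact 95% Clopper-Pearson interval 2.81 to 60.0), against the 13.7% of all protein-coding genes. Mecom (Prdm3), a regulator of blood stem cells, had 395 reads, of which 312 were in a peak of 12260 bp over its upstream end. Prdm12, which specifies pain-sensing neurons, had 325 reads, of which 268 were in a peak of 10828 bp over its lower end and its promoter. Both exceeded each of the 6 genes in reads, though the interval of Mecom (357 to 436) overlaps that of Prdm6, and the interval of Prdm12 (291 to 362) those of Prdm6 and Prdm13. Their widest peaks were also more than 2 times as wide as the widest at the 6 genes.

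No peak was listed at Prdm2, Prdm4, Prdm9, Prdm10, Prdm11, Prdm15 or Zfp408 (PRDM17). Prdm9 marks the hotspots of meiotic recombination, Prdm4 binds the neurotrophin receptor p75 and Prdm15 acts in pluripotent cells. Signal below the lowest listed count of 10 reads would not appear, so these genes had no peak at this depth. CG content varied among the promoter windows of these genes. The Prdm4 promoter shown above held 40 CG dinucleotides, more than 94.9% of all promoter windows, and the nearest peak was 11.3 kb from it. The other Prdm4 window held 32, more than 87.4% of all windows. The Prdm10 windows held 12 and 4, and those of Prdm9 18 and 9. Over the family, the median was 14.5 CG in the 6 windows (5 genes) overlapped by a peak. It was 23 in the 11 windows (7 genes) that were not, 1 of which is the Prdm16 window. Over all protein-coding promoters the order was the reverse, 19 and 12. Some family genes had more than 1 window and Prdm2, Prdm6 and Prdm14 had none, so these medians do not compare genes, and the difference was not tested.

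**Figure D4:**
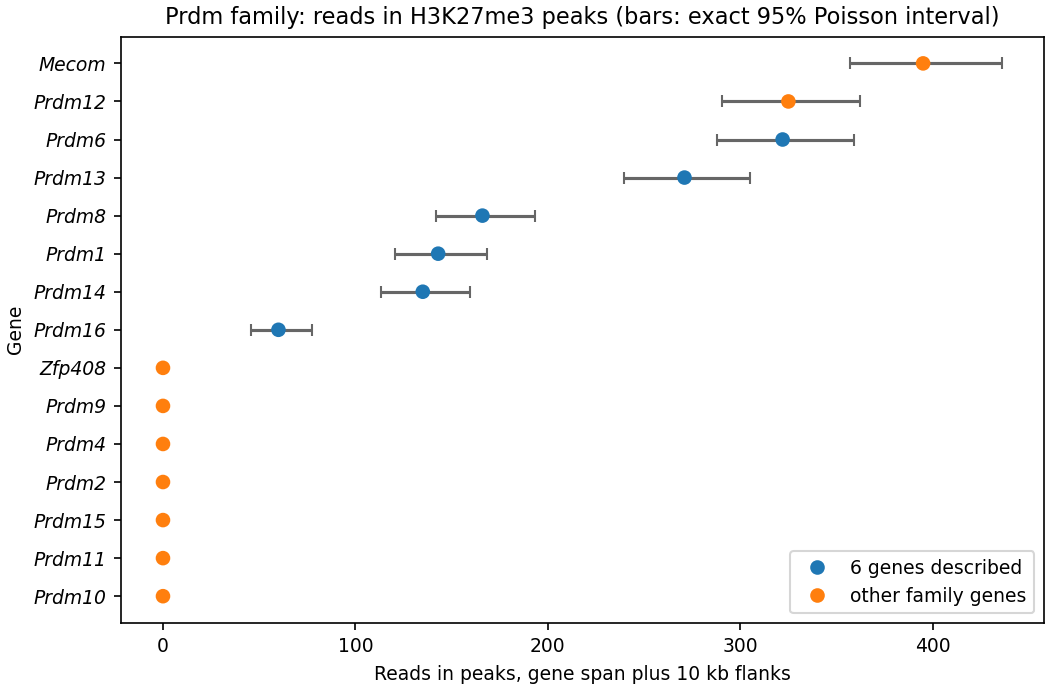
Points give the reads in peaks (x axis) of 15 Prdm family genes (y axis), blue for the 6 genes described and orange for the others, with bars for the exact 95% Poisson interval. Mecom and Prdm12 lie at the top with 395 and 325 reads, and 7 orange genes stand at 0.

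Genes that act with the 6 regulators, or that belong to the tissues and lineages in which they act, were counted in the same windows. In these, 13.7% of all protein-coding genes had a peak. Differences between these lists were not tested. All 15 genes of dorsal neural tube and retina development, the setting of Prdm13 and Prdm8, had a peak, with a median of 343 reads. Pax2 had 807 reads, the homeobox genes Lmx1b and Lbx1 had 684 and 648, and Ptf1a, the partner of Prdm13, had 112. Bhlhe22, the partner of Prdm8, had the fewest of that list, 22. Among 10 lymphocyte regulators around Prdm1, 4 had a peak (40%, exact 95% interval 12.2 to 73.8): Pax5 with 474 reads, Ebf1 with 154, Irf4 with 18 and Ciita with 12. Pax5 holds B cell identity and is repressed by Prdm1 in plasma cells. Among 13 germ cell and pluripotency genes, 5 had a peak (38.5%, 13.9 to 68.4). These were Tfap2c, which acts with Prdm1 and Prdm14 in germ cells (310 reads), Bmp4 (127), Sox2 (70), Pou5f1 (35) and Kit (11).

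Around Prdm16, 6 of 16 brown fat genes had a peak (37.5%, 15.2 to 64.6), and 5 of those 6 held 29 reads or fewer. Ebf2, which marks brown fat precursors, had 229 reads in a peak of 10956 bp, Ucp1, the uncoupling protein of brown fat, had 29 and Ppargc1a 20. Among 12 smooth muscle genes, the setting of Prdm6, 2 had a peak, Gata6 with 267 reads and Cnn1 with 21. That is 16.7% (2.09 to 48.4), near the 13.7% of all protein-coding genes. The median over all genes of the list was 0 reads for the lymphocyte, germ cell, brown fat and smooth muscle lists, as it was over all protein-coding genes. It was 155 for the 6 Prdm genes. The 6 genes and the lists were chosen with earlier results of these data known, so these medians are a description and not a test.

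**Figure D5:**
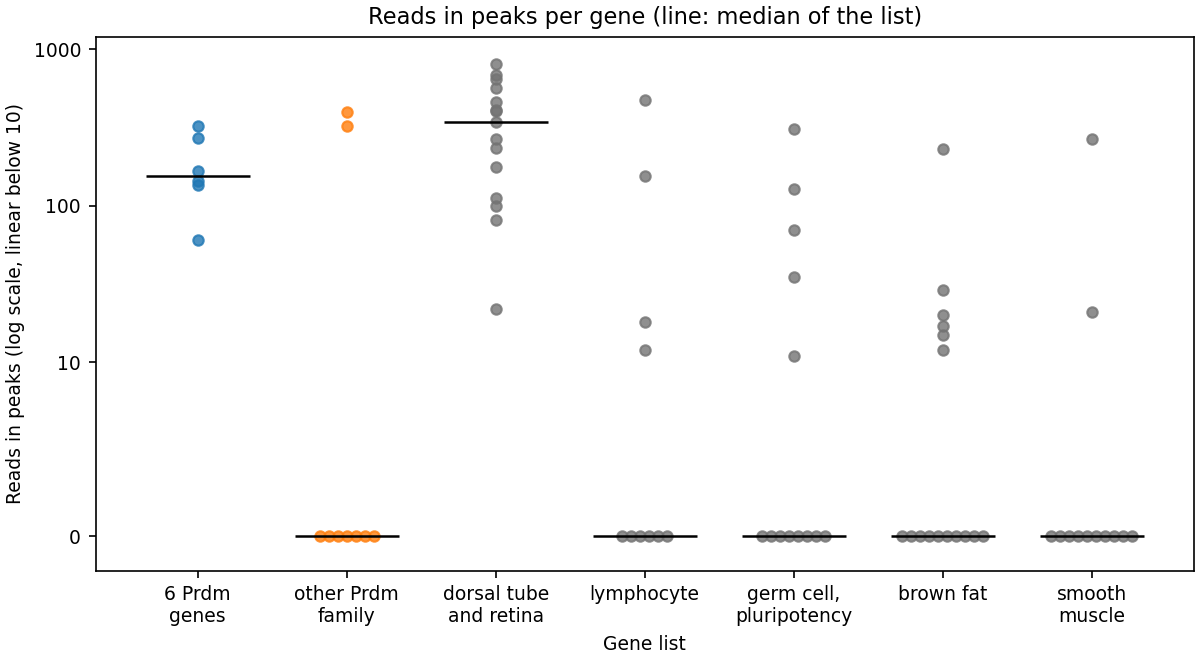
Points are genes, with reads in peaks on the y axis (log scale, linear below 10), grouped on the x axis by list, and lines mark the median of each list. The 6 Prdm genes lie between 60 and 322 reads, the 15 dorsal neural tube and retina genes between 22 and 807, and the medians of the other 5 lists are 0.

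In other families of developmental regulators, all 9 Pax genes had a peak, with a median of 474 reads, and 5 of 6 Gata genes did, with a median of 280. Over all protein-coding genes, 13.7% had a peak and the median was 0 reads. The 15 Prdm genes together had 8 with a peak and a median of 60 reads. The median of 155 reads at the 6 genes lay below those of the Pax and Gata families, and differences between families were not tested.

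Labelled tissue could not be checked by expression, since peaks measure none. The markers below are read against the 13.7% of all protein-coding genes with a peak. Of 11 Schwann cell markers, 4 had a peak (Mbp, Sox10, Egr2 and Ngfr), with 11 to 20 reads each. Peaks were at 1 of 6 fibroblast and perineurial markers (Pdgfra, 85 reads), 1 of 6 endothelial and mural markers (Rgs5, 12 reads), 1 of 4 adipocyte markers (Lep, 12 reads) and 0 of 4 macrophage and immune markers, which allows up to 75% when 3 counts are taken as the limit of a count of 0. Reads at 5 of the 6 Prdm genes exceeded those at every marker in these lists, and Prdm16 exceeded every one but Pdgfra.

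The protein-coding genes most like each of the 6, by the distance between log2 values (with 1 added) of peaks, reads, covered bases and widest peak in this 1 library, were the following. Prdm1 was closest to Hpcal4 (6 peaks, 138 reads, distance 0.06) and Hoxb5 (6 peaks, 141 reads, 0.14). Prdm6 was closest to Lhx6 (7 peaks, 303 reads, 0.15) and Msx1 (6 peaks, 336 reads, 0.23). Prdm8 was closest to Cyp26a1 (178 reads, 0.18), and Prdm13 to Osr2 (277 reads, 0.16) and Tbx20 (282 reads, 0.19). Prdm14 was closest to Ajap1 (137 reads, 0.06) and Erich1 (123 reads, 0.13). Prdm16 had the least close neighbours, Hrh3 (63 reads, 0.28) and Unc13a (67 reads, 0.34).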

How the data were processed

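Bowtie and genome build mm10 are named per the submitters' processing notes. The sources used here do not give the Bowtie version, peak caller, threshold, meaning of the score or use of the input. The authors deposited 1 list of 6018 peaks from the single ChIP library, each with a score. Scores were whole multiples of 2.5735 within 0.05 for 99.83% of peaks, so score divided by that step was read as reads (185225 in all peaks, median 14). Input values were not analysed here. At 10 reads the exact 95% Poisson interval runs from 4.80 to 18.4.

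Genes came from RefSeq, GRCm38.p6 (Python 3.11.15, pandas 2.3.3, SciPy 1.17.1), and BED starts were made 1-based. Whole peaks were counted for each gene span plus 10 kb. Overlap code was tested on simulated data. With 1 library no test was possible. Members and lists were chosen with earlier results of these data known. Named genes were the 6, 9 other family genes, window neighbours and the 2 nearest genes by pattern. In each list of partner and tissue genes, the 3 with most reads were also named. Others there complete a count of 5 or fewer or are partners, chosen after their values were seen. Some genes that the rule and lists take are not reported here. The Pax and Gata families, Zfp genes, genes of similar length, distances to the next peak and single markers were added after values were seen. Drgx and Mkl1 matched as Prrxl1 and Mrtfa. Protein sequences and genome sequence outside promoter windows were not used here. Other flanks, thresholds and overlaps were tried.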

Additional observations from a re-analysis of the deposited data

How the results depend on the processing

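The number of the 6 genes with a peak was 6 under each alternative except the limit of at least 20 reads, where it was 5 (Prdm16 lost), and the number of the 9 other family genes with a peak was 2 under each alternative except 20 kb flanks, where it was 3. The share of all protein-coding genes with a peak was 9.77% without flanks, 10.5% with 2 kb, 11.7% with 5 kb and 17.0% with 20 kb. It was 8.92% with peaks scoring no less than the median of 36.0, 6.77% with at least 20 reads and 11% when a peak counted only for its nearest gene. Without flanks, Prdm6 had 236 reads and Prdm13 144. At or above the median score, Prdm1 had 113 reads and Prdm16 18. With peaks of at least 20 reads, Prdm1 had 94, Prdm8 130 and Prdm16 0. Merging within 1 kb in place of 5 kb gave 5 domains at Prdm1 (3 before), 4 at Prdm6 and 4 at Prdm8 (2 before), 3 at Prdm13 (1 before) and 2 at Prdm14 (1 before). The other 65 values stayed within their counting interval or within 1.5 times the count. No paired analysis was possible because there is 1 ChIP library. Of the 29 peaks, 10 (34.5%) held 10 or 11 reads, against 36.7% of the whole list.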

Other observations

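Prdm proteins are zinc finger proteins, and genes with a Zfp symbol were set beside them after the values were seen. Of 367 Zfp genes, 21 had a peak in the gene span plus 10 kb (5.72%, exact 95% Clopper-Pearson interval 3.58 to 8.61), and the most reads at any of them was 75. Over all protein-coding genes, 13.7% had a peak and 1.69% had at least 135 reads. Of the 15 Prdm family genes examined, 8 had a peak (53.3%, 26.6 to 78.7), and 7 of those had at least 135 reads. Zfp408, which had no peak, is counted in both the Zfp and the Prdm set. Family members within each set are related in sequence and many Zfp genes are neighbours, so genes are not independent and the difference was not tested.

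Promoter windows with few CG dinucleotides were seldom overlapped by a peak, and the share was not highest in the richest windows. It was 0.71% of 6035 windows with 0 to 4 CG, 3.70% with 5 to 9, 8.06% with 10 to 14, 7.43% with 15 to 19, 5.84% with 20 to 24, 6.67% with 25 to 29 and 5.09% with 30 or more. Prdm13 (8 CG) fell in the class of 5 to 9, Prdm8 (12) in that of 10 to 14, Prdm1 (20) and Prdm16 (24) in that of 20 to 24, and the Prdm4 window printed above (40) in the richest.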
